A study of Mus musculus with 12 samples.

Results

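Kinesins are motor proteins that use ATP to walk along microtubules or to take microtubules apart. In neurons they carry vesicles, mitochondria and RNA granules out along axons and into dendrites, and in dividing cells other members of the family build the spindle, move chromosomes and complete cytokinesis. A motor usually works with light chains or adaptors that link it to cargo, and cytoplasmic dynein moves most cargo in the opposite direction. The kinesin genes described here are the 41 genes, of 20504 in the CDS count table, whose symbol starts with Kif or Kifc followed by a number. They were sorted by textbook role into 17 neuronal transport kinesins, 13 mitotic kinesins and 11 ciliary or other kinesins. The 24 kinesin partners (light chains, adaptors and cargo linkers) and 29 dynein and dynactin genes were followed alongside.

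The 12 libraries came from the brains of 6 mice, 2 per condition, all of them Camk2a-Cre/RiboTag animals, so that the controls carried the Cre driver and the tagged Rpl22 allele as well. According to the methods, the mice were adult and the tissue was the frontal lobe. Mice A and B were labelled Untreated (the methods describe vehicle by gavage). Mice C and D were given the mTOR kinase inhibitor AZD-8055 at 100 mg/kg by gavage 1 h before collection. From all 4 of these mice, poly(A) RNA-Seq and ribosome footprints were sequenced in parallel. Mice E and F, labelled Untreated, provided RNA-Seq of homogenized tissue (input) and of polysomes pulled down through the HA tag (IP), which the Camk2a promoter restricts to the principal excitatory neurons of the forebrain.

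Counts on CDS were 3503873 to 9259938 for the ribosome profiling libraries and 9395385 to 10649939 for the matched RNA-Seq libraries, and counts on exons were 19681269 to 27878212 for the RiboTag libraries. The 5 excitatory markers reported (such as Slc17a7 and Neurod6) were all enriched by IP, and 34 of the 36 markers tested in 8 other lists (other cell types and dividing cells) were depleted. Some of the latter, such as Top2a and Cenpe, had enough counts for the test through input alone, which favours depletion. The summed excitatory markers went from 59438 and 55265 normalized counts in the inputs of mice E and F to 177378 and 172276 in their IP. No gene of this family was targeted, and there is no knockout to check.

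Translation efficiency (TE), the ratio of normalized footprints to normalized RNA-Seq counts of a gene on CDS, covered a wide range among the transport kinesins, as the plot of TE in each mouse shows. All 17 passed the limit of 75 counts, summed over mice A and B, in each kind of library, together with 3 of the 11 ciliary or other members and none of the 13 mitotic ones. The median log2 TE of these 20 genes was −0.43, against 0.016 over all 10882 genes with a TE, and 11 of the 20 lay below that median. Their SD across genes was 1.45, against 0.99 for all genes, while the spread of the difference between the untreated mice was 0.28 (SD over all genes). The lowest kinesin (Kifc2) and the highest (Kif2a) thus lay near opposite ends of the distribution, at percentiles 0.0735 and 96.4.

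**Figure D1:**
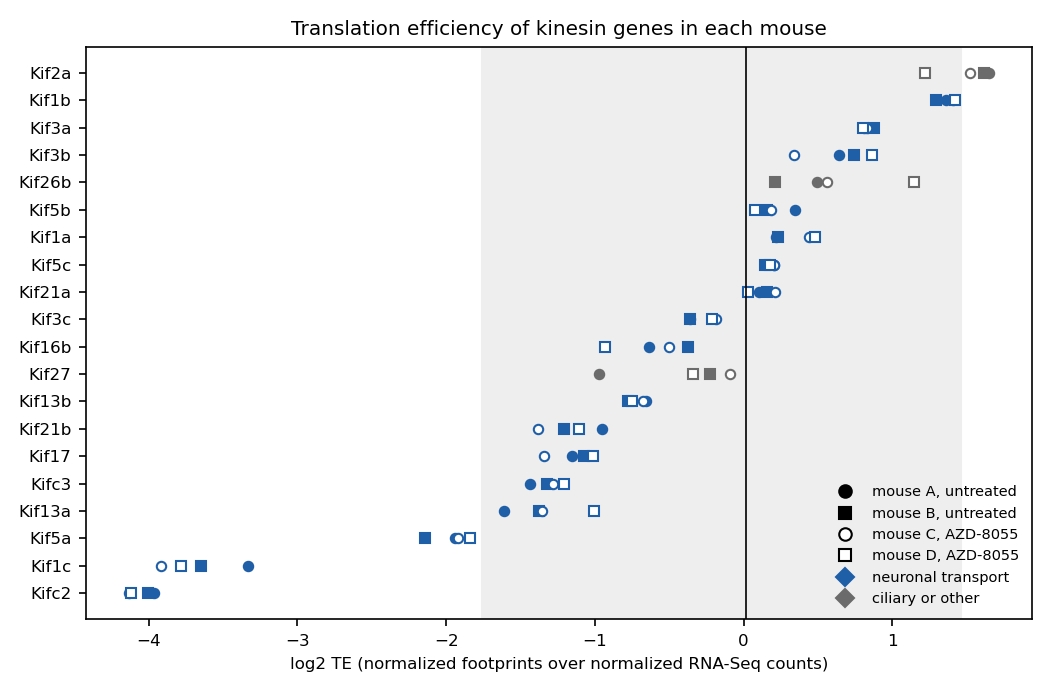
Log2 TE of the 20 kinesin genes with enough counts, 1 row per gene, with filled symbols for the untreated mice A and B and open symbols for mice C and D given AZD-8055. The line marks the median of all 10882 genes (0.016) and the grey band their 5th to 95th percentile (−1.76 to 1.46); Kifc2, Kif1c and Kif5a sit to the left of the band and Kif2a to the right of it in mice A and B.

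In edgeR's quasi-likelihood test of footprints against RNA in mice A and B, 26 of the 41 members reached the limit of 37 counts per library on average. Of these, 7 lay above the average gene (background 36.5% of 11797 genes) and 16 lay below it (background 37.3%), and 3 (Kif21a, Kif19a, Kif26b) did not pass an adjusted p of 0.05. With a limit of 2-fold as well, 11 lay below (background 17.6%) and 2 above (background 13.2%). Of the 17 transport kinesins 6 were higher, 10 lower and 1 not called, of the 7 ciliary or other members tested 1 was higher, 4 were lower and 2 were not called, and both mitotic members tested were lower. However, 6 members (Kif7, Kif9, Kif19a, Kif20a, Kif22 and Kif26a) reached the limit through their RNA-Seq counts alone, which favours a lower TE. All of these but Kif19a were among the lower calls, and Kif9, Kif20a, Kif22 and Kif26a among those over 2-fold. The share of such genes in the background was not counted.

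The heavy chains of conventional kinesin, Kif5a, Kif5b and Kif5c, did not share a TE. Kif5a (chr10:127225695-127266348, GRCm38), a neuronal form whose human counterpart is linked to hereditary spastic paraplegia, had 5594 and 2639 footprints in mice A and B, set against 23725 and 26517 RNA-Seq counts. This gave log2 TEs of −1.94 and −2.14. Kif5c (chr2:49619286-49774778), the other neuron-enriched heavy chain, had nearly as many footprints (5593 and 2739) from far fewer RNA-Seq counts (5373 and 5659), giving log2 TEs of 0.21 and 0.14. Kif5b, the form found in most tissues and located on chromosome 18, had 2673 and 1237 footprints and 2332 and 2528 RNA-Seq counts, giving log2 TEs of 0.34 and 0.16. Kif5a lay below the other two in both mice, and Kif5b and Kif5c overlapped. In the fit, Kif5a was lower than the average gene (−1.99 on the log2 scale, SE 0.058, adjusted p = 3.15e-13), whereas Kif5b (0.30, SE 0.072, adjusted p = 0.00146) and Kif5c (0.22, SE 0.060, adjusted p = 0.00417) were slightly higher. These small differences depended on the settings, and with total count scaling Kif5b gave 0.16 (adjusted p = 0.0428) and Kif5c lost its call (0.080, adjusted p = 0.20), as it did without a count limit (0.13, adjusted p = 0.174). Kif5a overlaps Dctn2 in the RefSeq annotation, and the strand setting of the counting is not given in the sources used here.

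The light chains of the same motor lay below Kif5b and Kif5c, and of these only Klc3 had a value below that of Kif5a. Klc1 (−0.33, SE 0.064) and Klc2 (−0.42, SE 0.077), the main neuronal light chains, were below the average gene with adjusted p = 0.000263 and 0.000128. Klc4 had a log2 TE of −1.03 (SE 0.12, adjusted p = 1.68e-06) and Klc3 of −2.37 (SE 0.23, adjusted p = 1.28e-07).

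Heterotrimeric kinesin-2, which serves both ciliary and axonal transport, is built from Kif3a with Kif3b or Kif3c and from the accessory subunit Kifap3. Kif3a (chr11:53565701-53604248) had 2721 and 1375 footprints to 1721 and 1705 RNA-Seq counts, with log2 TEs of 0.81 and 0.88. Kif3b (chr2:153291395-153333390) had 707 and 345 footprints to 502 and 471, with log2 TEs of 0.64 and 0.74. Kif3c (chr12:3365132-3406494), the partner most restricted to neurons, had 1551 and 743 footprints to 2209 and 2175, with a log2 TE of −0.36 in both mice. Kif3a (0.89, SE 0.072, adjusted p = 1.73e-08), Kif3b (0.73, SE 0.12, adjusted p = 3.1e-05) and Kifap3 (1.58, SE 0.080, adjusted p = 6.83e-11) were above the average gene and Kif3c was below it (−0.32, SE 0.073, adjusted p = 0.00105). Kif17, a homodimeric motor of the same family that carries NMDA receptor vesicles in dendrites, was lower (−1.09, SE 0.12, adjusted p = 4.56e-07), with log2 TEs of −1.15 and −1.07.

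Paralogues of the vesicle motors were spread as widely. Kif1a (chr1:93015455-93102039), the motor of synaptic vesicle precursors, had 13146 and 6842 footprints to 12543 and 13280 RNA-Seq counts, with log2 TEs of 0.22 and 0.23. Kif1b (chr4:149176319-149307773), which carries mitochondria and synaptic vesicle precursors through different isoforms, had 8731 and 4243 footprints to 3764 and 3948, with log2 TEs of 1.36 and 1.29. Kif1c (chr11:70700396-70731970) had only 144 and 69 footprints to 1603 and 1968, with log2 TEs of −3.33 and −3.65, and its mean ranked 23 from the bottom of all genes. The 3 genes did not overlap in any of mice A to D. The fit placed Kif1b at 1.37 (SE 0.061, adjusted p = 1.57e-11), Kif1a at 0.27 (SE 0.053, adjusted p = 0.000308, and 0.13 with total count scaling, adjusted p = 0.0294) and Kif1c at −3.44 (SE 0.12, adjusted p = 1.52e-12).

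The endosome-linked motors Kif13a, Kif13b and Kif16b were all lower than the average gene, at −1.49 (SE 0.15), −0.67 (SE 0.096) and −0.49 (SE 0.17), with adjusted p = 2.54e-07, 1.18e-05 and 0.0204. Kif16b lost its call under DESeq2 (−0.46, adjusted p = 0.0788). The footprints of these motors were few, with 132 and 92, 313 and 153, and 115 and 72 in mice A and B. Kif21b, a motor of dendrites, was lower (−1.04, SE 0.11, adjusted p = 3.18e-07) and its paralogue Kif21a was not called (0.17, SE 0.076, adjusted p = 0.0503). Kif21a missed the threshold narrowly and passed it under DESeq2 (adjusted p = 0.0427) and limma-voom (adjusted p = 0.0301).

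Both C-terminal motors of the transport list, which move towards the minus ends of microtubules, lay low. Kifc2 (chr15:76659784-76668196) had 471 and 241 footprints beside 8135 and 8831 RNA-Seq counts. Its log2 TEs of −3.96 and −4.01 ranked it 9 from the bottom of the 10882 genes, and the values of all 4 mice lay between −4.13 and −3.96. The fit gave −3.94 (SE 0.076, adjusted p = 9.28e-15). Kifc3 was lower by a smaller amount (−1.35, SE 0.095, adjusted p = 3.12e-09). Both overlap other genes in the RefSeq annotation.

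Kif2a (chr13:106958996-107022355), which takes microtubule ends apart and limits axon branches, had the highest TE of the members that reached the limit of 37 counts. The 1835 and 840 footprints of Kif2a came from 648 and 624 RNA-Seq counts, with log2 TEs of 1.65 and 1.62. The fit gave 1.68 (SE 0.094, adjusted p = 2.08e-10). At a limit of 10 counts, Kif24 (1.78) and Kif14 (2.71) had higher values on few counts, against 1.64 for Kif2a. Kif2a overlaps Dimt1 in the RefSeq annotation. Among the other non-transport members, Kif26a (−2.28, SE 0.31, adjusted p = 6.44e-06), Kif9 (−1.34, SE 0.23, adjusted p = 6.3e-05), Kif7 (−0.87, SE 0.34, adjusted p = 0.0318) and Kif27 (−0.59, SE 0.23, adjusted p = 0.0308) were lower, from 11 to 51 footprints in each library. Under DESeq2 the calls of Kif7 (−0.86, adjusted p = 0.097) and Kif27 (−0.55, adjusted p = 0.113) were lost. Kif26a, Kif9 and Kif7 reached the limit of 37 through their RNA-Seq counts alone, which favours a lower TE, and they kept their calls at a limit of 10, which they passed in both kinds of library. Kif27, a motor associated with cilia, differed between the mice, with log2 TEs of −0.97 (A) and −0.23 (B). Without mouse A its call was lost (−0.15), as were those of Kif16b (−0.30), Kif5b (0.23), Kif22 (−0.67) and Kif7 (−1.16), and Kif7 also lost its call without mouse B (−0.57). The choroid plexus marker Ttr had 189 RNA-Seq counts in mouse A and 10020 in mouse B, while Foxj1, a marker of ciliated ependymal cells, had 100 and 119, and the part of choroid plexus tissue in the values of the ciliary members was not tested.

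The mitotic kinesins were at the edge of detection in the adult brain. Their 13 genes together held 404 and 392 RNA-Seq counts and 286 and 199 footprints on CDS in mice A and B, and 7 markers of dividing cells such as Mki67 and Top2a summed to 109 and 102 normalized RNA-Seq counts. Only Kif20a, which acts in cytokinesis, and the chromokinesin Kif22 had enough counts for the main test. Kif22 (chr7:127027729-127042467) had 19 and 21 footprints, 80 and 80 RNA-Seq counts, and a log2 TE of −1.32 in the fit (SE 0.31, adjusted p = 0.00111). Kif20a, on chromosome 18, had 25 and 11 footprints, 95 and 101 RNA-Seq counts, and a log2 TE of −1.82 (SE 0.35, adjusted p = 0.000249). Both reached the limit of 37 through their RNA-Seq counts alone and kept their calls at a limit of 10, which they passed in both kinds of library. In the RefSeq annotation Kif20a overlaps Brd8 and Cdc23, and it had fewer counts on exons (59 and 64) than on CDS (95 and 101) in the same RNA-Seq libraries.

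With the limit lowered to a mean of 10 counts per library, 9 more mitotic and 2 more ciliary or other members could be tested, and they went both ways. Kif14 passed this limit through its footprints alone, and Kifc1 and Kifc5b through their RNA-Seq counts alone, so that the limit favoured the direction in which they lay and their values are given without a test. At this limit 32.5% of 13860 genes were higher and 35.5% were lower. Kif14, which acts in cytokinesis, had a log2 TE of 2.71 (SE 0.53) on 21 and 18 footprints with only 4 and 5 RNA-Seq counts. Kif20b (1.50, SE 0.49, adjusted p = 0.0128), Kif18a (1.16, SE 0.49, adjusted p = 0.0448) and Kif15 (0.92, SE 0.37, adjusted p = 0.0379) were higher. Kifc1 and Kifc5b had log2 TEs of −1.45 (SE 0.50) and −1.55 (SE 0.43), and these genes are near-identical copies, so that reads could be split between them. The ciliary Kif6 (0.93, SE 0.38, adjusted p = 0.0392) and the centriolar Kif24 (1.78, SE 0.46, adjusted p = 0.00287) were higher. Kif11 (0.57, SE 0.33), Kif23 (0.13, SE 0.37) and Kif4 (−0.66, SE 0.41) did not pass, with adjusted p = 0.138, 0.758 and 0.165. The other 4 members (Kif2c, Kif18b, Kif2b and Kif12) stayed below this limit too. In mice A to D, Kif2b had 0 RNA-Seq counts in each but 3, 4, 1 and 4 footprints. Kif12 had 0, 0, 2 and 0 RNA-Seq counts but 5, 7, 6 and 10 footprints. The part of such footprints in the TE of other members with few counts, and in the mitotic sum, was not tested. Summed over all 13 mitotic genes, the log2 ratio of footprints to RNA was −0.35 in mouse A, 0.21 in B, 0.13 in C and −0.095 in D, and over the 17 transport genes it was −0.43, −0.51, −0.40 and −0.38. The mitotic sum was the higher one in 4 of 4 mice, and it varied between mice by more than the transport sum. Without Kif20a and Kif22, which were set aside after their values had been seen, the mitotic sum gave 0.23, 0.85, 0.82 and 0.34. No test was run on these sums.

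The promoters of mitotic and transport genes held different motifs. RefSeq promoters (GRCm38.p6, 250 bases before to 50 after an annotated start) were at hand for 33 of the 41 members. A pair of motifs known from cell-cycle promoters were searched on both strands, the cell-cycle genes homology region or CHR (TTTGAA or TTCGAA) and the CCAAT box (CCAAT), neither of which contains the other. A CHR was found in 11 of 12 mitotic genes, in 1 of 11 transport genes (1 of 2 starts of Kif1a) and in 3 of 10 ciliary or other genes. Among all genes with a RefSeq promoter it was found in 5854 of 27025 (19.2% of the 32851 promoters). A CHR and a CCAAT box together occurred in 8 of 12 mitotic genes and in none of the 11 transport genes, against 2328 of all 27025 genes (7.52% of promoters). These counts describe letters in a window and not binding. The 80 bases before the start of a pair of mitotic genes and a pair of transport genes are shown, 5′ to 3′ on the plus strand, with CHR and CCAAT box letters in capitals, because they show the arrangement (TTCAAA and ATTGG are the reverse complements of TTTGAA and CCAAT).
Kif11, the motor that keeps spindle poles apart (chr19:37376302-37376381): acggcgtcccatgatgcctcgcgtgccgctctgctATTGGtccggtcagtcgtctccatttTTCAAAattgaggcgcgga
Kif15, a second spindle motor (chr9:122951001-122951080): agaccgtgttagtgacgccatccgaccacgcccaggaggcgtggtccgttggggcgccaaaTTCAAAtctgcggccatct
Kif5c (chr2:49619206-49619285): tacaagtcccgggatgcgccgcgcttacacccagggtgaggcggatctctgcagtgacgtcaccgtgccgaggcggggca
Kif17 (chr4:138262171-138262250): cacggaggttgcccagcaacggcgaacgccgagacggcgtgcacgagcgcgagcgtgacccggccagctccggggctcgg
In Kif11 and Kif15 the CHR began 19 bases before the start, and in Kif11 a CCAAT box stood 45 bases before it. None of the 37 kinesin promoters began with a C followed by at least 4 pyrimidines, the start of mTOR-sensitive TOP mRNAs, which 2.51% of all promoters and 13 of 73 promoters of ribosomal protein genes had.

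**Figure D2:**
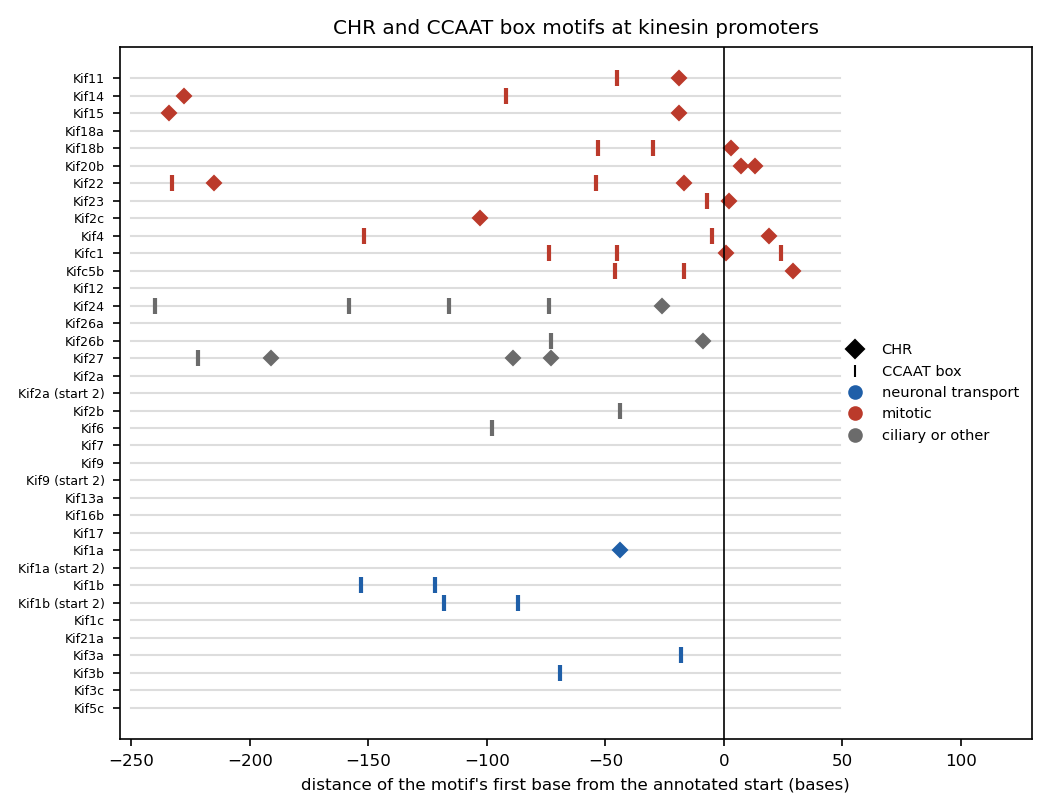
Positions of CHR motifs (diamonds) and CCAAT boxes (ticks) in the 37 RefSeq promoters of 33 kinesin genes, by distance in bases from the annotated start (0), with 1 row per start and colours for the gene groups. CHR motifs appear in 11 of 12 mitotic rows and in 1 of 13 transport rows.

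RiboTag IP against input asked which kinesin mRNAs had a larger or smaller share in the polysomes of excitatory neurons than in the homogenate. This ratio does not separate cell type from ribosome association. A depleted mRNA is not absent from these polysomes, and the depleted Kif5a had 19969 and 19908 exon counts in the IP of mice E and F. In bulk tissue, fewer cells of a type and less RNA per cell cannot be told apart. Of the 29 members tested on exon counts, 3 were enriched (background 33.7% of 13254 genes) and 16 were depleted (background 35.7%), and 11 of these were depleted over 2-fold (background 21.8%) while none was enriched over 2-fold (background 11.7%). The median log2 enrichment of the 34 members with at least 75 counts, summed over the input and IP of both mice, was −0.50. Over all 14159 genes it was 0.041, and 27 of the 34 lay below that median. Transport members gave 3 enriched, 10 depleted and 4 not called, mitotic members 2 depleted and 3 not called, and ciliary or other members 4 depleted and 3 not called. The medians of the groups were −0.17 (17 transport genes), −1.12 (9 mitotic genes) and −0.69 (8 ciliary or other genes). In these medians too, some mitotic genes reached the limit of 75 counts mostly through input, which favours a negative value. Kif15 had 53 and 46 exon counts in input and 6 and 13 in IP (mice E and F), and Kif18a had 31 and 29 and then 5 and 12. The medians are therefore a description only. Mice E and F alone gave −0.15 and −0.28 for the transport genes and −1.21 and −0.57 for the mitotic genes. On CDS counts the group medians were −0.90 (17 genes), −0.48 (8 genes) and −0.56 (8 genes), so that the order of the transport and mitotic groups was turned around. Each table has its own size factors, so that part of a group's shift between the tables comes from scaling.

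**Figure D3:**
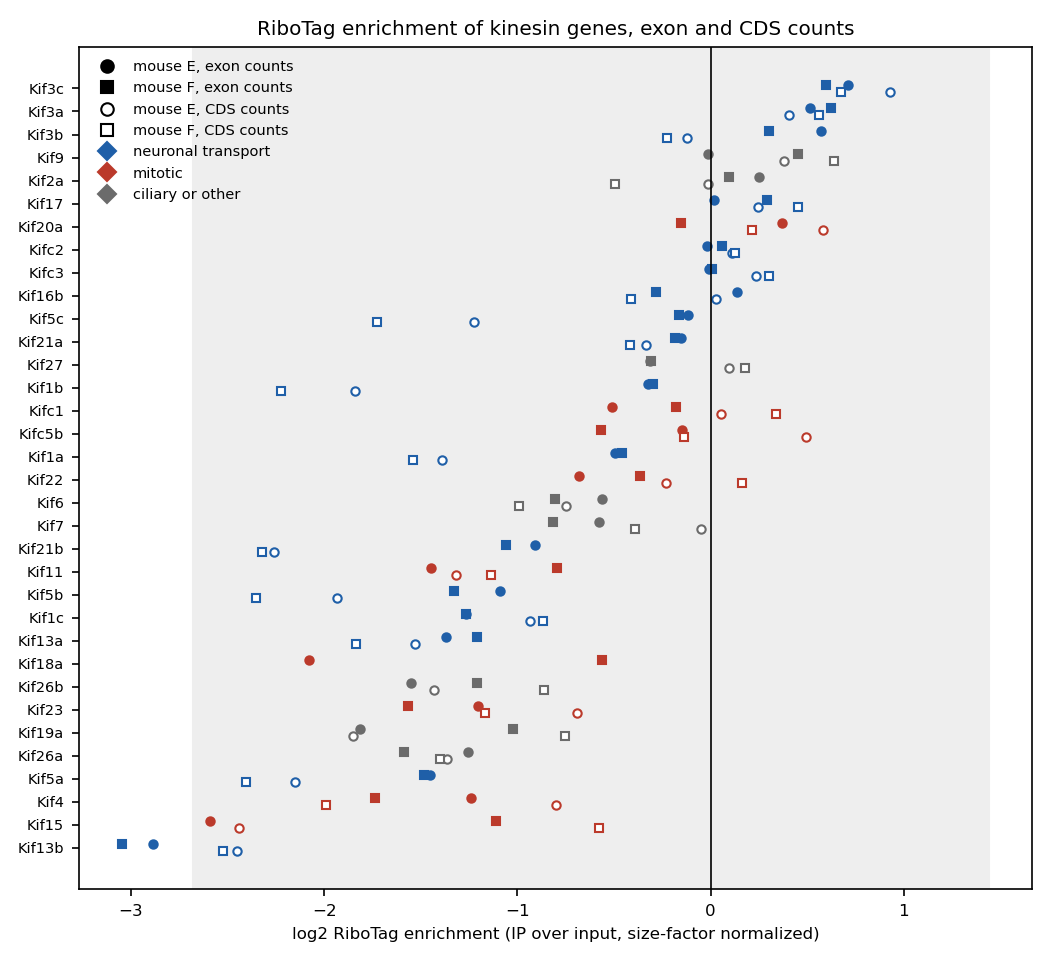
Log2 RiboTag enrichment (IP over input) of the 34 kinesin genes with enough counts, with filled symbols for exon counts and open symbols for CDS counts, circles for mouse E and squares for mouse F. The grey band spans the 5th to 95th percentile of all genes on exon counts (−2.68 to 1.44); Kif13b sits to the left of it and Kif3c, Kif3a and Kif3b head the list.

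The enriched genes were the 3 motor subunits of heterotrimeric kinesin-2. Kif3c had a log2 enrichment of 0.71 in mouse E and 0.60 in mouse F, Kif3a of 0.51 and 0.62, and Kif3b of 0.57 and 0.30. In the fit these were 0.54 (SE 0.091, adjusted p = 0.00226), 0.45 (SE 0.11, adjusted p = 0.0104) and 0.32 (SE 0.10, adjusted p = 0.0312). Their subunit Kifap3 was enriched too (0.49, SE 0.12, adjusted p = 0.0106), as were the light chains Klc1 (0.91, SE 0.082, adjusted p = 0.000192) and Klc2 (0.62, SE 0.084, adjusted p = 0.000855), while Klc4 was not called (−0.40, SE 0.17, adjusted p = 0.0713). On CDS counts Kif3a (0.35) and Kif3c (0.67) kept their calls and Kif3b had the opposite sign (−0.31, adjusted p = 0.0649). Scaled by total counts, which moved the median of all genes to −0.35, the calls of Kif3a (0.18) and Kif3b (0.044) were lost.

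Kif13b (chr14:64652492-64809618) was the most depleted member. Its 769 and 811 exon counts in input (mice E and F) compared with 71 and 60 in IP, a log2 enrichment of −2.89 and −3.05, and −3.08 in the fit (SE 0.20, adjusted p = 8.54e-05). This lay in the range of the marker lists of other cells, whose medians were −3.23 for astrocytes, −2.74 for oligodendrocytes and −1.99 for inhibitory neurons. Kif5a followed among the transport members, with a log2 enrichment of −1.45 and −1.48 (−1.58 in the fit, SE 0.11, adjusted p = 9.61e-05). Kif13a (−1.41, SE 0.14), Kif1c (−1.38, SE 0.14), Kif5b (−1.32, SE 0.100) and Kif21b (−1.09, SE 0.17) were depleted more than 2-fold, and Kif1a (−0.59, SE 0.086), Kif1b (−0.43, SE 0.077), Kif21a (−0.29, SE 0.082) and Kif5c (−0.26, SE 0.093) less. On exon counts Kif5c lay close to the average gene (log2 enrichment −0.12 and −0.16 in mice E and F), unlike Kif5a and Kif5b. On CDS counts all 3 conventional heavy chains were depleted over 2-fold in the fit, with −2.40 for Kif5a, −2.26 for Kif5b and −1.59 for Kif5c (adjusted p = 3.53e-06, 3.75e-06 and 1.92e-05). Kif16b (−0.19), Kifc3 (−0.12), Kifc2 (−0.10) and Kif17 (0.020) were not called, with adjusted p between 0.284 and 0.935. The smallest depletions depended on the settings, and Kif5c lost its call under DESeq2 (adjusted p = 0.0714), with RLE size factors (adjusted p = 0.0686) and with both lower count limits, where Kif21a lost its call too.

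The size of these depletions depended on whether exons or CDS were counted, and among the members it changed by the most for transport kinesins. On CDS counts Kif1b gave −1.84 (mouse E) and −2.22 (mouse F), against −0.32 and −0.30 on exons. Kif5c gave −1.23 and −1.73 against −0.12 and −0.16, Kif1a −1.39 and −1.54 against −0.49 and −0.46, and Kif21b −2.26 and −2.32 against −0.91 and −1.06. The number of exon counts per CDS count shows the same in each library. For Kif1b it went from 2.43 and 2.54 (input, mice E and F) to 9.41 and 13.8 (IP), while the median of all genes went from 1.47 and 1.50 to 1.79 and 1.90. The change in this ratio from input to IP lay at percentile 99.0 of 10082 genes for Kif1b, 97.6 for Kif5c, 97.5 for Kif21b, 94.6 for Kif1a, 93.8 for Kif5b and 91.9 for Kif5a. Of the 17 transport members 13 changed more than the median gene, and 6 lay above percentile 90. Kif13b, at the other end, had 1.00 exon count per CDS count in all 4 libraries to within 1 count, so that its value has no part from outside the CDS. Its log2 enrichment still went from −2.89 and −3.05 on exons to −2.45 and −2.52 on CDS counts, through the size factors of the tables. On CDS counts 18 of 29 members were called, 2 enriched and 16 depleted. Why the ratio differed between genes was not tested.

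**Figure D4:**
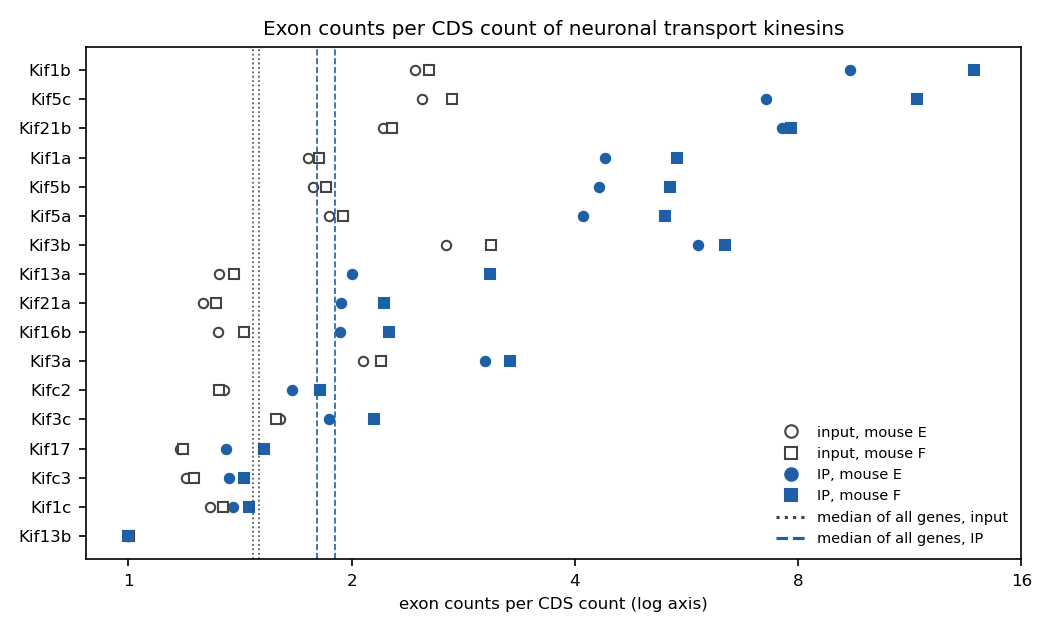
Exon counts per CDS count (log axis) of the 17 transport kinesins in the input (open) and IP (filled) libraries of mice E (circles) and F (squares), sorted by the change from input to IP. Dotted and dashed lines mark the median of all genes in input (1.47 and 1.50) and IP (1.79 and 1.90); Kif1b moved from 2.43 and 2.54 to 9.41 and 13.8 and Kif13b stayed at 1.00.

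Of the mitotic members tested, Kif23, a component of the central spindle (71 and 63 exon counts in input, 21 and 13 in IP), and Kif11 (96 and 88 in input, 24 and 31 in IP) were depleted, by −1.46 (SE 0.40, adjusted p = 0.0166) and −1.24 (SE 0.30, adjusted p = 0.00975). Kif22 (−0.65, SE 0.26, adjusted p = 0.0614), Kifc5b (−0.42, SE 0.42) and Kif20a (0.16, SE 0.87) were not called. With the mouse as a block, which pairs the input and IP of each animal, Kif22 was called (−0.64, adjusted p = 0.0102). Kif23 and Kif11 reached the limit of 37 through their input counts alone and kept their calls at a limit of 10, which they passed in both kinds of library. Without mouse E the value of Kif11 was −0.79, with no test. The input counts of Kif20a differed between the mice, with 375 in mouse E and 120 in mouse F, so its interval ran from −1.95 to 2.27. With the limit lowered to a mean of 10 counts, Kif4 (−1.51, SE 0.34, adjusted p = 0.00776) was depleted as well and Kifc1 (−0.40, SE 0.36) was not called (background 33.8% depleted of 14972 genes, with 33.3% enriched). Kif14 (−2.62, SE 0.70), Kif20b (−2.07, SE 0.68), Kif15 (−1.80, SE 0.44), Kif2c (−1.27, SE 0.58) and Kif18a (−1.23, SE 0.48) passed this limit through their input counts alone, and their values are given without a test. The 3 markers of dividing cells with enough counts were depleted, with a median log2 enrichment of −1.36. However, Top2a (153 and 120 exon counts in input, 13 and 12 in IP) and Cenpe (57 and 78 in input, 19 and 27 in IP) reached the limit of 37 through input alone. This favours a negative value. All 7 markers of dividing cells summed to 460 and 278 normalized counts in input and 144 and 93.4 in IP. Summed over all 13 mitotic genes, the log2 enrichment was −0.39 (mouse E) and −0.66 (mouse F), on either side of the transport sum (−0.58 and −0.56). Without Kif20a and Kif22 it was −1.30 and −0.96. On CDS counts these sums were 0.039 and −0.22 for all 13 genes and −0.81 and −0.71 without Kif20a and Kif22, less negative than on exons in both mice, whereas the transport sum was more negative on CDS (−1.04 and −1.16). Scaling also made Kif13b less negative on CDS at nearly equal counts. A less negative sum on CDS therefore does not by itself describe the mitotic genes.

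Among the ciliary or other members, Kif26a (−1.53, SE 0.19), Kif26b (−1.53, SE 0.33), Kif19a (−1.49, SE 0.30) and Kif7 (−0.82, SE 0.24), a component of Hedgehog signalling in cilia, were depleted with adjusted p between 0.000571 and 0.0218. Kif19a and Kif26b rested on 19 to 58 IP counts per library, and Kif19a reached the limit of 37 through its input counts alone (and kept its call at a limit of 10). Kif7 lost its call on CDS counts (−0.36) and under DESeq2 (−0.79, adjusted p = 0.106). At a limit of 10, Kif6 (−0.73, SE 0.32, adjusted p = 0.0819) was not called. Kif24 (−1.37, SE 0.46) passed that limit through its input counts alone, and its value is given without a test. The microtubule depolymerase Kif2a (0.051, SE 0.11) and Kif9 (0.10, SE 0.20) were not called, although Kif2a was lower on CDS counts (−0.39, adjusted p = 0.0362).

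Set beside the kinesins, the dynein and dynactin list lay on the other side in both measures, by its medians and counts. The dynein heavy chain, Dync1h1, did not. Its TE was near the average gene (−0.019, SE 0.060, adjusted p = 0.787) and it was depleted by IP (−1.22, SE 0.080, adjusted p = 8.55e-05). Of the 24 dynein and dynactin genes tested in each comparison, 17 had a TE above the average gene (background 36.5%) and 4 below (background 37.3%), with a median of 0.55 over 24 genes with a TE. By IP 13 were enriched (background 33.7%) and 6 depleted (background 35.7%), with a median of 0.50 over 27 genes. The extremes in TE were Hook3, a dynein activator (3.11), and Bicd1 (1.82) at the top and Dctn1 (−1.08) and Bicd2 (−0.81) at the bottom. In the IP they were Dynll1 (1.75) and Dctn3 (1.68) against Nde1 (−2.50) and Bicd1 (−2.09). The 24 kinesin partners gave 5 genes above and 14 below in TE (median −0.41 over 23 genes), with Arl8b, a lysosomal adaptor (2.16), and Kifap3 (1.58) highest and Ppfia4 (−2.44) and Klc3 (−2.37) lowest. In the IP 9 partners were enriched and 4 depleted of 23 tested, the former near the share of all genes, with Fez2 (0.94) and Klc1 (0.91) highest and Grip1 (−1.24) and Ppfia1 (−0.86) lowest. These lists are described by their counts, and no difference between lists was tested. Across the 20 kinesins with both values, log2 TE and log2 enrichment had a Pearson's r of 0.26 and a Spearman's rho of 0.30 on exon counts, and of −0.023 and 0.039 on CDS counts, which describes genes that share libraries.

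Inhibition of mTOR for 1 h moved no kinesin past the threshold in edgeR's test, whether in TE (background 0.865% of 11797 genes), in RNA (background 0.0932%) or in footprints (background 1.52%). At an unadjusted p under 0.05 there were 1, 1 and 7 of the 26 members tested in these comparisons (background 6.75%, 7.06% and 14.5% of all genes). DESeq2 and limma-voom each called 0 in TE, with 1 member at an unadjusted p under 0.05, and 0 in RNA, with 0 and 3. In footprints limma-voom called 0, with 4 at an unadjusted p under 0.05, and DESeq2 called 1, with 5. The median change in TE was 0.055 on the log2 scale for the 26 members and −0.011 for all genes, and it was −0.0082 for the 17 transport kinesins.

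Kif1a had the lowest p of the family in TE and in footprints. Its normalized footprints were 10782 and 10696 in mice A and B and 12343 and 12038 in mice C and D, while its normalized RNA-Seq counts were 9286 and 9108 against 9089 and 8641. In the fit its RNA changed by −0.056 on the log2 scale (SE 0.053, adjusted p = 0.875). Its change in TE was 0.24 on the log2 scale (SE 0.076, 95% interval 0.077 to 0.40, unadjusted p = 0.00649, adjusted p = 0.372), and its change in footprints was 0.18 (SE 0.054, adjusted p = 0.12). DESeq2 placed the footprint change just inside the threshold (0.19, adjusted p = 0.0491). Neither edgeR value passed the correction over all genes.

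The other members below an unadjusted p of 0.05 in footprints moved both ways. Kif3c (0.20), Kif5a (0.13) and Kif7 (0.90) were numerically higher, and Kif5b (−0.19), Kif2a (−0.23) and Kif1c (−0.47) numerically lower, with adjusted p between 0.242 and 0.316. In RNA only Kifc2 (0.14, SE 0.063, adjusted p = 0.689) lay below an unadjusted p of 0.05. For the abundant members the intervals of the TE change were narrow. That of Kif5c ran from −0.16 to 0.20, that of Kif1b from −0.090 to 0.27, that of Kif3a from −0.24 to 0.20 and that of Kif5a from −0.0098 to 0.33. For the mitotic Kif20a (−1.52 to 1.02) and Kif22 (−0.55 to 1.36) a change over 2-fold lay within the interval, so that a difference of that size remained possible. The intervals of Kif7, Kif19a, Kif26a, Kif26b and Kif27 also reached past a 2-fold rise. The change in footprints also gave no call for the 24 partners or the 24 dynein and dynactin genes tested, of which 6 and 3 had an unadjusted p under 0.05 in edgeR's test (background 14.5%).

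**Figure D5:**
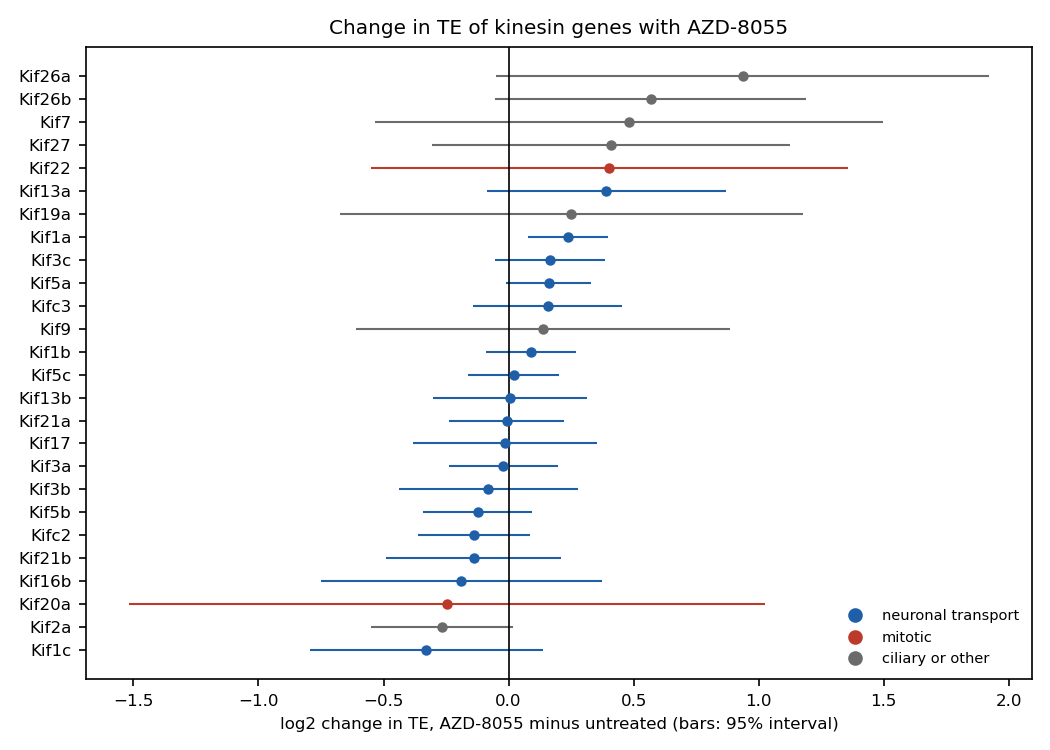
Change in log2 TE with AZD-8055 (mice C and D minus mice A and B) for the 26 kinesin genes tested, with 95% intervals from edgeR's fit and colours for the gene groups. The interval of Kif1a (0.077 to 0.40) lies above 0 and those of the other 25 genes include 0.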

How the data were processed

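The authors deposited raw counts per gene in a CDS table (12 libraries) and an exon table (RNA-Seq only). They had removed rRNA reads using Bowtie2, mapped the remainder by TopHat2 and assigned them to genes by HTSeq (strict intersection), and the submitters' processing notes name mm10. The deposited counts were used without change. Kinesins were taken by symbol, and positions come from RefSeq on GRCm38.p6, the same assembly. The members and gene lists were chosen with earlier results of these data known. Changes were tested with edgeR 4.0.16 (TMM, quasi-likelihood test, Benjamini-Hochberg adjustment over all genes tested, threshold 0.05, counts averaging 37 or more over the libraries) in R 4.3.3, with 1 fit of the 8 matched libraries on CDS and 1 of the 4 RiboTag libraries on exons. TE and enrichment per mouse are ratios of counts divided by DESeq2 1.42.0 size factors, without a pseudocount. Alternatives were DESeq2, limma-voom (limma 3.58.1), other scalings and count limits, the other count table, a replicate block and leaving out each mouse. The procedures were tested on simulated data. Figures used Python 3.11.15 with pandas 2.3.3 and matplotlib 3.10.9. Genes named are all members that the text counts, and of the other lists the kinesin light chains, Kifap3, Dync1h1 and the 2 highest and lowest values. Libraries with the same mouse letter came from 1 animal, and across genes the deviations of paired libraries correlated at 0.231 (mice A and B), 0.219 (C and D) and 0.559 (E and F). Each group holds 2 mice, which limits the precision of every test. Levels were not compared between genes, because no coding lengths were used here. Some items, among them a cell type marker, are not reported here.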

Additional observations from a re-analysis of the deposited data

How the results depend on the processing

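With the mouse as a replicate block, 24 of 26 kinesins were called in TE (Kif21a gained), 20 of 29 in the RiboTag IP (Kif22 gained) and 0 in the TE change, and this paired fit lost no call. Counts of called members stayed within 1.5 times the main count (23 in TE, 19 in the IP) under the other tools, scalings, count limits and count tables, apart from a limit of 2-fold, which left 13 in TE and 11 in the IP, and apart from DESeq2, which called 1 member, Kif1a, in footprints, where edgeR called 0. Leaving out 1 mouse gave 18 to 23 members called in TE and 0 in each of the 3 drug comparisons. The median log2 TE of kinesins ran from −0.56 to −0.29 when 1 mouse was left out. The median log2 enrichment (−0.50) was −0.89 with total count scaling, where that of all genes was −0.35, −0.87 on CDS counts and −0.31 with at least 200 counts, and it was −0.51 without either mouse. The single reversal was Kif3b in the IP on CDS counts (−0.31). For the members called in TE or the IP, or at an unadjusted p under 0.05 in a drug comparison, 500 values with a test were made under these alternatives. Of these, 477 kept their direction and side of the threshold, 21 lost a call, 1 gained a call and 1 was reversed. Among all members tested in TE and the IP, calls were gained 12 times. These were Kif21a in TE under 5 settings, Kif27, Kifc2, Kif16b, Kif22 and Kifc3 in the IP with total count scaling, Kif2a in the IP on CDS counts and Kif22 with the block. The causes were not tested. Leaving out mouse E or F leaves no residual degrees of freedom, so that these values, which all kept their direction, have no test. The mitotic members are limited by counts, with 11 of 13 under the main limit in the TE test.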
